A study of Mus musculus with 21 samples.

Results

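The genes of cholesterol and fatty acid synthesis were followed by RNA sequencing in 21 libraries of lung tissue from A/J females. The gene set was defined by name and not by its values. It held 31 genes, which were 31 of the 38924 gene symbols in the deposited count table, and all 31 passed the filter on low counts. Of these, 30 matched by symbol, and Msmo1 matched through its older symbol, Sc4mol. Sterol genes (18) were read apart from fatty acid genes (13), and Srebf1 and Srebf2 were placed with the sterol genes. Libraries were made from 7 groups of mice at 22 weeks, with 3 libraries in each group.

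Every mouse had received either NNK, a tobacco carcinogen, as 1 intraperitoneal injection of 100 mg/kg in 0.1 ml of saline, or the vehicle. Mice of the LPS groups received lipopolysaccharide, a bacterial cell wall product that inflames the lung, by the intranasal route at 5 µg per mouse in 50 µL each week, beginning 1 week after NNK. Control mice had neither agent, and the NNK, LPS and NNK_LPS groups had the carcinogen, the lipopolysaccharide, or both. The remaining 3 groups had both and were fed silibinin (NNK_LPS_Sil), indole-3-carbinol (NNK_LPS_I3C) or the combination (NNK_LPS_Sil_I3C), each agent at 20 µmol per g of diet. In the 5 groups with NNK the libraries were made from tumours cut out of the lung, with 3 mice pooled in a group, whereas Control and LPS libraries were made from normal lung. Tumour tissue and NNK exposure therefore cannot be told apart in any comparison with lung. It is not stated that the 3 libraries in a group are separate mice, so p-values measure the spread between libraries, which may be technical.

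Cholesterol is built from acetyl-CoA through the mevalonate pathway to farnesyl diphosphate, and then through squalene and lanosterol. Fatty acids are built from acetyl-CoA that ATP citrate lyase releases from citrate, and are then desaturated and elongated. The transcription factors SREBP1 and SREBP2 (genes Srebf1 and Srebf2) drive both branches, SREBP2 mainly the sterol genes and SREBP1 mainly the fatty acid genes. The Insig1 protein holds them in the endoplasmic reticulum when sterols are plentiful. In lung, alveolar type 2 cells use fatty acid synthesis and desaturation to make surfactant phospholipid.

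SREBPs bind sterol response elements in promoters, often beside sites for NF-Y, which binds CCAAT, and Sp1, which binds GC-rich boxes. RefSeq promoters (GRCm38.p6, 250 bases before to 50 after the start) were matched to 25 of the 31 genes, as 33 sequences. Fdps, Fdft1, Sqle, Scd1, Scd2 and Fads1 were not matched. CCAAT, on either strand, occurred in a promoter of 15 of 15 sterol genes and 6 of 10 fatty acid genes, and in 41.1% of all 27025 genes with a promoter sequence. GGGCGG, on either strand, occurred for 14 of 15 sterol genes and 6 of 10 fatty acid genes, and in 38.2% of all genes. One form of the sterol response element, TCACNCCAC on either strand, occurred only in the Hmgcs1 promoter, and in 1.24% of all 32851 promoters. CCAAT matches on opposite strands can share bases, as 2 do in Fasn. Promoters are shown for 4 genes. Insig1 and Mvd moved in opposite directions with LPS, Fasn rose in tumours, and Hmgcs1 held the TCACNCCAC match. All are on GRCm38.p6, read 5′ to 3′ on the strand of the gene, with CCAAT and TCACNCCAC matches on either strand in capitals. Insig1 lies at chr5:28071162-28071461 (plus strand), Mvd at chr8:122443373-122443672 (minus), Fasn at chr11:120824498-120824797 (minus) and Hmgcs1 at chr13:119690101-119690400 (plus).
Insig1: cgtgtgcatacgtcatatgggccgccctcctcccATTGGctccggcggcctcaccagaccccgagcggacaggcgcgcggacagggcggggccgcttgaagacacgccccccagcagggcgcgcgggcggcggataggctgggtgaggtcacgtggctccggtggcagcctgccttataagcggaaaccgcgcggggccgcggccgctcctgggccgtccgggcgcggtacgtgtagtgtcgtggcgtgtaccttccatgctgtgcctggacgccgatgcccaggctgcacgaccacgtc
Mvd: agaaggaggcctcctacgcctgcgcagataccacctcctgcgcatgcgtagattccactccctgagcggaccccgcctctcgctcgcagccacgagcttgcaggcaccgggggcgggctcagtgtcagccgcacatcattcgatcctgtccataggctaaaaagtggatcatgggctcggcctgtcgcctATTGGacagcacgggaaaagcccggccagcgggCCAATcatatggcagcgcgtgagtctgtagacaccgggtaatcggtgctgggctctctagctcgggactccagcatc
Fasn: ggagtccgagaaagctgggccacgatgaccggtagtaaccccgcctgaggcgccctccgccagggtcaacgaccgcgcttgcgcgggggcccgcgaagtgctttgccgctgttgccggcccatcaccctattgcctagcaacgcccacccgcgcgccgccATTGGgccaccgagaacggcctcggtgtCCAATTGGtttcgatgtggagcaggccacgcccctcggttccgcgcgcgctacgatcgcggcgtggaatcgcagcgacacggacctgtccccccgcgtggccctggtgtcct
Hmgcs1: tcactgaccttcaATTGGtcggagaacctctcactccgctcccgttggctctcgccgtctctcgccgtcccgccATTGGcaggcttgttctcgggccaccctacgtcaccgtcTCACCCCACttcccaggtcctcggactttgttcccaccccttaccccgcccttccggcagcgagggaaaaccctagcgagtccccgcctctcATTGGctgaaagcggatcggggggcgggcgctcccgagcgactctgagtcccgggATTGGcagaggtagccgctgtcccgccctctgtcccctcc
Measured from the start site, the TCACNCCAC match in Hmgcs1 began at -137. The Fasn CCAAT matches began at -90, -62 and -59, and those of Mvd at -60 and -27. The CCAAT match of Insig1 began at -216. A match describes the letters and is not a measured binding site.

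Libraries held 13.3 to 25.3 M counts, and the lowest count of any of the 31 genes in any library was 83 (Elovl6). Levels are given as CPM, counts scaled to library size. The mt-Atp8 count divided by that of its mitochondrial neighbour mt-Atp6 split the libraries into 3 sets, which the labels do not give. The ratio was 0.0206 to 0.0236 in Control, NNK, LPS 1 and LPS 2, and 0.0782 to 0.0876 in LPS 3, NNK_LPS, NNK_LPS_Sil and NNK_LPS_I3C 1. It was 0.117 to 0.135 in NNK_LPS_I3C 2 and 3 and in NNK_LPS_Sil_I3C. NNK against Control and NNK_LPS_Sil against NNK_LPS lay within 1 set. NNK_LPS shared no set with Control, NNK or NNK_LPS_Sil_I3C, so library set and group cannot be told apart there, except through a set term that rests on the LPS and NNK_LPS_I3C libraries.

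Per kilobase of exon, the 7 most abundant genes in Control were fatty acid genes, while below them the classes mixed. Scd1, the stearoyl-CoA desaturase that makes oleate and palmitoleate, had the highest level per kilobase of the 31 genes in every group, at 354 ± 26.9 CPM per kb in Control (SD, n = 3) and 975 ± 92.5 CPM per kb in NNK. In Control it was followed by its paralog Scd2 at 155 ± 5.79 CPM per kb and by the very-long-chain elongase Elovl1 at 134 ± 7.73 CPM per kb. Elovl5, Acly, Fasn and Acsl4 came next, between 75.3 and 50.2 CPM per kb. The highest sterol gene was Hmgcs1, the HMG-CoA synthase, at 33.6 ± 0.751 CPM per kb. The lowest were the palmitate elongase Elovl6 at 2.75 ± 1.19 and the sterol reductase Hsd17b7 at 2.36 ± 0.385 CPM per kb, which overlapped in spread.

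**Figure D1:**
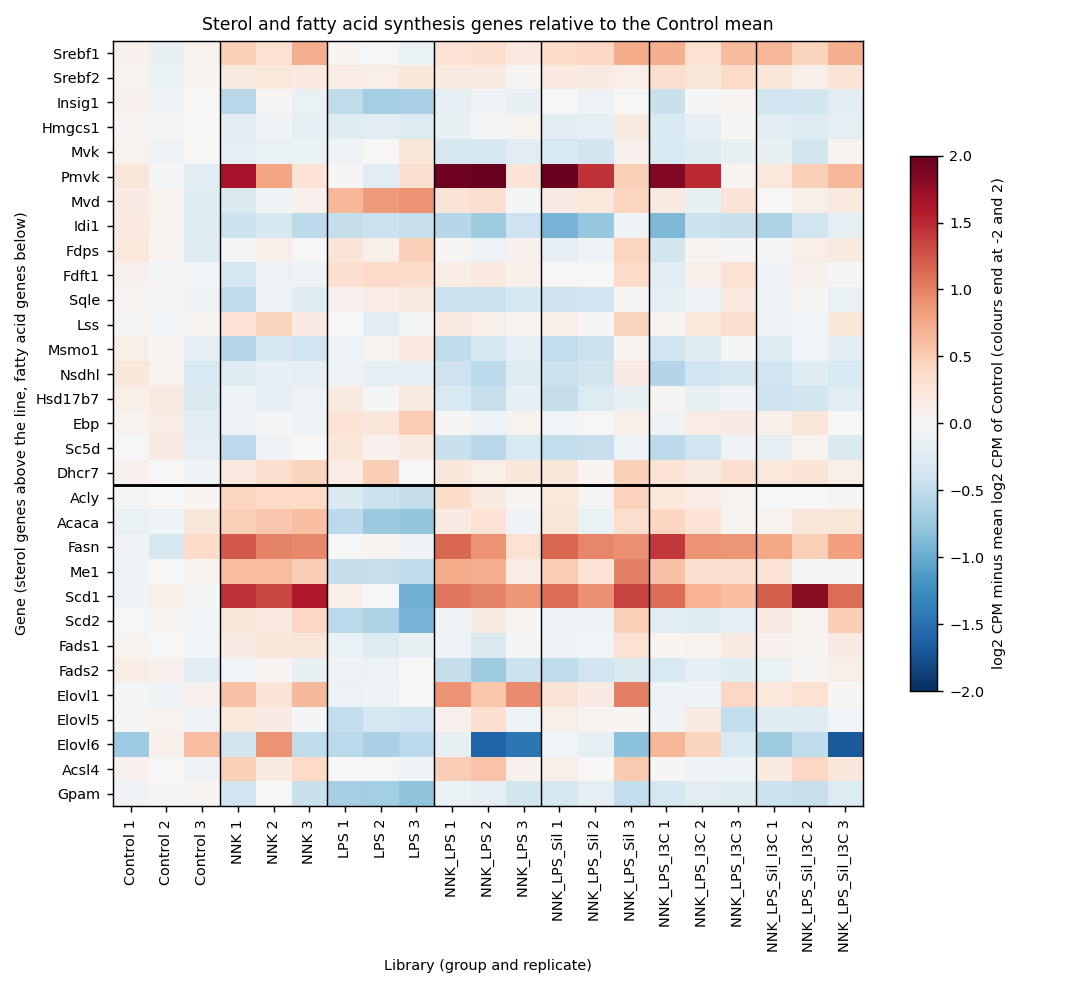
Heat map of the 31 genes (rows, sterol genes above fatty acid genes) in the 21 libraries (columns, by group), coloured by log2 of the CPM over the Control mean. Scd1 and Fasn are high across the tumour libraries, most fatty acid genes are low in the 3 LPS lung libraries, and Pmvk varies within tumour groups.

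NNK tumours were first set against Control lung. Scd1 and Fasn were among 5 fatty acid genes that were higher in the tumours, and 2 sterol genes were called. By edgeR's quasi-likelihood test with Benjamini-Hochberg adjustment over 15770 genes, 7 of the 31 genes passed an adjusted p of 0.05, where 13.1% of all genes tested passed. Of the 13 fatty acid genes 5 rose and none fell, with a median log2 fold change of 0.35. Of the 18 sterol genes 1 rose and 1 fell, with a median of -0.15, and the median of all genes was -0.02. Across all genes 6.46% rose and 6.63% fell.

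Scd1 stood at 1629.9, 1880.4 and 1686 CPM in Control and at 4705, 4349.8 and 5248 CPM in NNK. Every NNK library was above every Control library, and the mean rose 2.75-fold, a log2 change of 1.46 ± 0.23 (SE, adjusted p = 0.00298). Fasn, the fatty acid synthase, stood at 650.3, 549 and 892 CPM in Control and at 1597, 1365 and 1335 CPM in NNK. The groups did not overlap, although Control 3 was well above the other two, and the log2 change was 1.04 ± 0.20 (adjusted p = 0.00657). These were the only 2 calls kept with each library left out and under every other alternative tried. Leaving out Control 2 left these 2 genes called, and leaving out Control 1 or NNK 1 left 4.

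The suppliers of the pathway were also higher. Acly, which makes cytosolic acetyl-CoA, was tightly grouped, with a mean of 353 ± 7.99 CPM in Control and 469 ± 4.67 CPM in NNK (SD, n = 3), and it rose by 0.41 ± 0.10 on the log2 scale (adjusted p = 0.0133). Acaca, acetyl-CoA carboxylase 1, which commits acetyl-CoA to fatty acid synthesis, stood at 117, 121 and 152 CPM in Control and 179.9, 187 and 195 CPM in NNK. It rose by 0.53 ± 0.13 (adjusted p = 0.0167). Me1, the malic enzyme that supplies NADPH, rose by 0.58 ± 0.16 (adjusted p = 0.0298), from a range of 94.7 to 105 CPM to one of 141 to 154 CPM. Srebf1, which drives these genes, stood at 111, 94.2 and 109.7 CPM in Control and 145, 129 and 173 CPM in NNK, and it rose by 0.51 ± 0.13 (adjusted p = 0.0167).

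Other fatty acid genes had positive changes that missed the threshold. The long-chain acyl-CoA synthetase Acsl4 had a log2 change of 0.35 ± 0.13 and Elovl1 one of 0.51 ± 0.19 (adjusted p = 0.0747 and 0.083). Scd2, the paralog near Scd1 on chromosome 19, stood at 845 ± 31.6 CPM in Control and 1031 ± 85.0 CPM in NNK, a log2 change of 0.29 with a 95% interval of -0.02 to 0.59. Reads of near-identical paralogs can be assigned to either gene, and how shared reads were counted is not given. Gpam, which starts glycerolipid synthesis, had the lowest estimate of the fatty acid genes, -0.26 ± 0.11, and was not called (adjusted p = 0.112). NNK 2, at 163 CPM, lay inside the Control range of 155 to 166 CPM.

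Among the sterol genes only Msmo1, a methylsterol oxidase, fell. It stood at 63.8, 59.7 and 51.0 CPM in Control and 38.9, 45.9 and 43.8 CPM in NNK, a log2 change of -0.44 ± 0.14 (adjusted p = 0.0470). This call was lost under 7 of 12 alternatives, among them each of 5 left-out libraries. Srebf2 (0.19 ± 0.07), Dhcr7, the last enzyme of the Kandutsch-Russell branch (0.34 ± 0.12), and Lss, lanosterol synthase (0.30 ± 0.11), had positive estimates, with adjusted p between 0.0654 and 0.0852. The isomerase Idi1 (-0.44 ± 0.18) and the squalene epoxidase Sqle (-0.28 ± 0.12) had negative estimates, with adjusted p of 0.123 and 0.130. NNK and Control libraries did not overlap for 9 fatty acid genes, all higher in NNK, and for sterol genes in 5 cases higher and 6 lower. Over all genes 37.8% did not overlap, 17.3% higher and 20.5% lower.

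**Figure D2:**
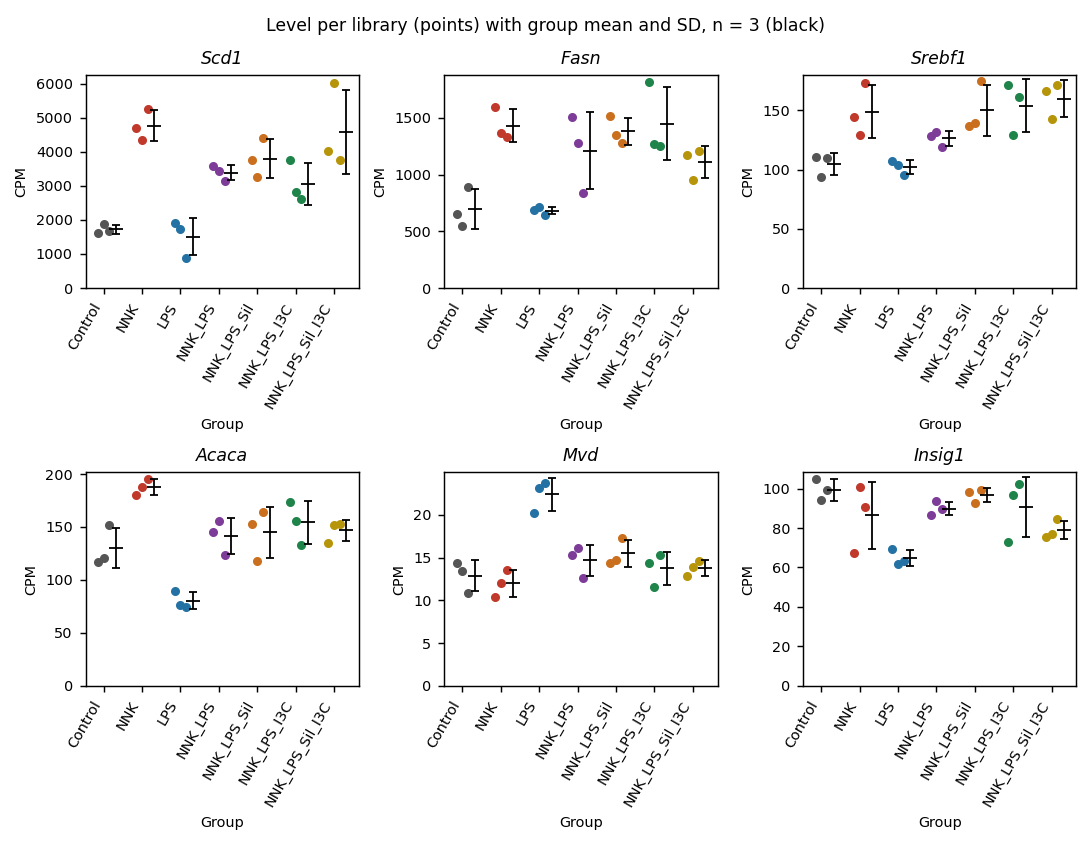
CPM in each library (points) with the group mean and SD (n = 3) for Scd1, Fasn, Srebf1, Acaca, Mvd and Insig1. Scd1 in the 15 tumour libraries lies between 2612 and 6009 CPM, above the 6 lung libraries at 893 to 1904 CPM, while Mvd has its highest and Acaca and Insig1 their lowest group mean in LPS lung.

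Genes of the same pathways outside the set, taken from lists, were called in 4 of 18 cases for sterol genes, 3 of 32 for fatty acid and glycerolipid genes and 1 of 16 for efflux genes in NNK tumours, beside 13.1% of all genes. Of 18 tested sterol pathway genes 2 rose, the SREBP escort Scap (0.35 ± 0.07) and the lysosomal sterol carrier Npc2 (0.48 ± 0.12). In the same list 2 fell, the lanosterol demethylase Cyp51 (-0.42 ± 0.13) and 0610007P14Rik (-0.31 ± 0.09). Of 32 tested fatty acid and glycerolipid genes 2 rose, the elongase Elovl7 (0.73 ± 0.16) and the phosphatidate phosphatase Lpin1 (0.59 ± 0.17), and 1 fell, the cholinephosphotransferase Chpt1 (-0.35 ± 0.09). Of 16 liver X receptor and sterol efflux genes 1 rose, Soat1, which esterifies cholesterol (0.65 ± 0.14).

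Markers of several cell types moved as well. Of 14 alveolar type 2 markers 9 rose and none fell in NNK against Control. Their summed level ran from 53187 to 64466 CPM in NNK against 38141 to 45749 CPM in Control. Of 5 club cell markers 5 fell, and of 9 heart muscle markers 8 fell. Of 8 neutrophil markers 7 rose, with sums of 494 and 599 CPM in NNK 1 and NNK 2, while NNK 3 at 88.8 CPM lay inside the Control range of 39.5 to 106 CPM. Alveolar macrophage markers rose in 2 of 12 cases, 1 of 8 endothelial markers fell, and none of 8 monocyte and interstitial macrophage markers was called. Adipocyte markers, which belong to a cell type rich in these enzymes, had no call among 11, and their sum was 87.5 to 203 CPM in NNK and 177 to 242 CPM in Control. In bulk tissue, more cells of a type and more RNA per cell cannot be told apart, and the part of these markers in the result was not tested.

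LPS lung was next set against Control lung. Here 6 of 13 fatty acid genes fell and 7 were not called, while the called sterol genes split. Of the 31 genes 13 were called, where 50.0% of all genes tested were called, so the share was no higher than over all genes. None of the fatty acid genes rose, and their median log2 fold change was -0.40, beside 24.7% of all genes falling. Of the sterol genes 4 rose and 3 fell, with a median of 0.07, beside 25.3% of all genes rising.

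Gpam stood at 155, 165 and 166 CPM in Control and 102, 99.7 and 93.1 CPM in LPS, with no overlap. Its log2 change was -0.72 ± 0.11 (adjusted p = 3.5e-05), the smallest p of the 31 genes. Acaca was at 89.4, 76.8 and 74.3 CPM in LPS, below the lowest Control library at 117 CPM, and fell by 0.70 ± 0.13 on the log2 scale (adjusted p = 0.00034). Scd2 was at 579, 551 and 444 CPM in LPS, below all Control libraries at 813 to 876 CPM, and fell by 0.69 ± 0.14 (adjusted p = 0.000829). Acly (-0.40 ± 0.10), Me1 (-0.48 ± 0.16) and the polyunsaturated fatty acid elongase Elovl5 (-0.41 ± 0.13) also fell.

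Fasn, Scd1 and Srebf1 were not called in LPS lung. Fasn was at 689, 713 and 648 CPM in LPS, inside the Control range of 549 to 892 CPM. Scd1 was at 1904, 1722 and 893 CPM in LPS, and the library at 893 CPM, LPS 3, came from another library set than the other two. Its log2 change was -0.20, with a 95% interval of -0.68 to 0.28. Srebf1 was at 107, 104 and 95.3 CPM in LPS.

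Among the regulators, Insig1 fell from 105, 94.0 and 99.1 CPM to 69.5, 61.8 and 63.4 CPM, with no overlap between the groups (-0.61 ± 0.12, adjusted p = 0.00061). Srebf2 rose slightly, by 0.17 ± 0.07 (adjusted p = 0.0435). In the mevalonate segment, Mvd, the diphosphomevalonate decarboxylase, rose from 14.3, 13.5 and 10.8 CPM to 20.2, 23.1 and 23.8 CPM, 1.74-fold, a log2 change of 0.80 ± 0.14 (adjusted p = 0.000158). Idi1, which acts on the product of Mvd, fell by 0.47 ± 0.18 (adjusted p = 0.0415), and Hmgcs1 fell by 0.24 ± 0.10 (adjusted p = 0.0443). Mvd and Idi1, successive enzymes, thus had called changes of opposite sign.

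Among the late enzymes, the sterol isomerase Ebp rose by 0.33 ± 0.10 (adjusted p = 0.00992). Fdft1, squalene synthase, rose by 0.36 ± 0.12 (adjusted p = 0.0154), from 46.4, 42.3 and 42.2 CPM to 55.1, 56.9 and 56.5 CPM. The exons of Fdft1 overlap those of the cathepsin gene Ctsb on the opposite strand over 774 bp, 18.3% of the Fdft1 exons, and Ctsb itself rose with LPS, from 649 to 2032 CPM (log2 change 1.65 ± 0.12). The strand setting of the counting is not given, so reads of the overlap cannot be assigned, and the part of Ctsb in the Fdft1 value was not tested. The other late enzymes, among them Sqle, Lss and Sc5d, were not called.

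Of the 13 calls, 7 were kept under every alternative tried. They were Gpam, Mvd, Acaca, Insig1, Scd2, Acly and Fdft1. Without Control 2 or without LPS 1 there were 8 calls, and 9 when only LPS 1 and LPS 2, the libraries of the Control set, were used. The calls of Hmgcs1, Srebf2, Idi1 and Me1 were lost under 11, 8, 8 and 7 of 13 alternatives. In these counts the fit with only LPS 1 and LPS 2 and the fit without LPS 3 are the same fit, counted separately. LPS and Control libraries did not overlap for 7 fatty acid genes, all lower, and for 5 higher and 3 lower sterol genes. Over all genes 61.3% did not overlap, 30.4% higher and 30.9% lower.

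Related genes outside the set moved in both directions with LPS, where 50.0% of all genes were called, 25.3% higher and 24.7% lower. In the sterol list of 18, 3 rose and 4 fell. The rises included the cis-prenyltransferase subunit Nus1 (0.79 ± 0.13), and the thiolase Acat2 (-0.44 ± 0.11) and the sterol carrier Stard4 (-0.35 ± 0.09) were among the falls. In the fatty acid and glycerolipid list of 32, 11 fell and 4 rose. The falls included the acetyl-CoA synthetase Acss2 (-1.03 ± 0.11), Chpt1 (-0.79 ± 0.09), the carbohydrate-response factor Mlxipl (-1.55 ± 0.32) and the desaturase Scd4 (-1.74 ± 0.36). Elovl7 (0.98 ± 0.16) and the acyl-CoA synthetase Acsl1 (0.89 ± 0.17) rose. In the liver X receptor and efflux list of 16, 7 rose and 3 fell. The rises included the receptor Nr1h3 (0.74 ± 0.07), the oxysterol enzymes Ch25h (3.46 ± 0.35) and Cyp7b1 (2.35 ± 0.35), and Apoe (1.42 ± 0.22), and the falls were Cyp27a1 (-0.94 ± 0.13), Pltp (-0.84 ± 0.15) and Scarb1 (-0.51 ± 0.15).

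Cell type markers also moved in this comparison, where 50.0% of all genes were called. Of 11 adipocyte markers 9 fell, and their sum was 73.8 to 95.9 CPM in LPS against 177 to 242 CPM in Control. Among them Lep was at 0 in LPS 1 and LPS 2, while Adipoq averaged 0.250 CPM in LPS and 8.57 CPM in Control. Of 14 alveolar type 2 markers 6 fell and 3 rose, and their sum was 30986 to 38555 CPM in LPS. Of 8 neutrophil markers 7 rose and of 8 monocyte and interstitial macrophage markers 8 rose, while alveolar macrophage markers had 7 of 12 lower and 2 higher, and of 8 endothelial markers 8 fell. Of 5 club cell markers 5 fell, with a sum of 13741 to 17744 CPM in LPS against 36665 to 40044 CPM in Control, and of 9 heart muscle markers 8 fell. Their part in the changes of the synthesis genes was not tested.

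Tumours of mice given both agents were compared with Control lung and with LPS lung. Against Control, 11 of the 31 genes were called, where 24.6% of all genes tested were called. Of the fatty acid genes 5 rose and 1 fell, and of the sterol genes 1 rose and 4 fell, beside 12.0% of all genes rising and 12.6% falling. Scd1 was at 3594, 3423 and 3150.3 CPM in NNK_LPS, above all Control libraries (0.97 ± 0.23, adjusted p = 0.00669). Fasn was at 1510.0, 1276 and 842 CPM, and its lowest library lay inside the Control range (0.79 ± 0.20, adjusted p = 0.00918). Elovl1 was at 681, 535 and 702 CPM, against 348 to 389 CPM in Control (0.81 ± 0.19, adjusted p = 0.00635). Me1 (0.56 ± 0.16) and Acsl4 (0.39 ± 0.13) also rose.

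Fads2, the delta-6 desaturase of polyunsaturated fatty acid synthesis, went the other way. It stood at 46.1, 44.4 and 35.5 CPM in Control and 30.0, 25.6 and 31 CPM in NNK_LPS, with no overlap, and fell by 0.54 ± 0.10 on the log2 scale (adjusted p = 0.00149). Sqle (-0.40 ± 0.12), Idi1 (-0.57 ± 0.18), the sterol dehydrogenase Nsdhl (-0.41 ± 0.14) and the sterol desaturase Sc5d (-0.43 ± 0.15) fell. Pmvk, the phosphomevalonate kinase, rose by 1.67 ± 0.51 (adjusted p = 0.0271) with a wide spread between libraries. NNK_LPS shares no library set with Control. With a set term in the model 1 call was left, Scd1 (1.99 ± 0.30). Between these sets the term rests on 1 library, LPS 3, against LPS 1 and LPS 2. Scd1 was at 893 CPM in LPS 3, and at 1904 and 1722 CPM in LPS 1 and LPS 2. There were 4 calls without NNK_LPS 2 and 5 without Control 1, Control 2 or NNK_LPS 1.

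Against LPS lung, 20 of the 31 genes were called, where 38.2% of all genes tested were called. Of the fatty acid genes 10 rose and 1 fell, beside 17.3% of all genes rising, and of the sterol genes 2 rose and 7 fell, beside 20.9% of all genes falling. The medians were 0.60 for fatty acid genes and -0.22 for sterol genes. Me1 stood at 168, 165 and 111 CPM in NNK_LPS and at 70.6 to 73.0 CPM in LPS (1.04 ± 0.16, adjusted p = 0.000105). Acaca was at 145, 156 and 123 CPM, against 74.3 to 89.4 CPM in LPS (0.82 ± 0.13, adjusted p = 0.000124). Acly (0.60 ± 0.10), Scd2 (0.74 ± 0.14), Scd1 (1.17 ± 0.23), Fasn (0.82 ± 0.20), Elovl1 (0.87 ± 0.19), Elovl5 (0.52 ± 0.13), Gpam (0.50 ± 0.11) and Acsl4 (0.43 ± 0.13) rose as well.

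The 7 sterol genes that fell against LPS lung were Sqle (-0.54 ± 0.12), Mvd (-0.61 ± 0.14), Sc5d (-0.60 ± 0.15), Ebp (-0.35 ± 0.10), Hsd17b7 (-0.41 ± 0.13), Msmo1 (-0.39 ± 0.14) and the mevalonate kinase Mvk (-0.34 ± 0.12). Mvd was at 15.4, 16.1 and 12.6 CPM in NNK_LPS, below the LPS libraries at 20.2 to 23.8 CPM. Insig1 (0.47 ± 0.12) and Pmvk (1.62 ± 0.51) rose, and Fads2 fell by 0.46 ± 0.10. These values share the LPS libraries with the comparison of LPS and Control, and the NNK_LPS libraries with that of NNK_LPS and Control. With the library set term 15 calls were left. Of the 20 calls, 12 were kept under every alternative tried, among them Scd1, Fasn, Acaca, Acly, Me1, Sqle and Mvd.

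**Figure D3:**
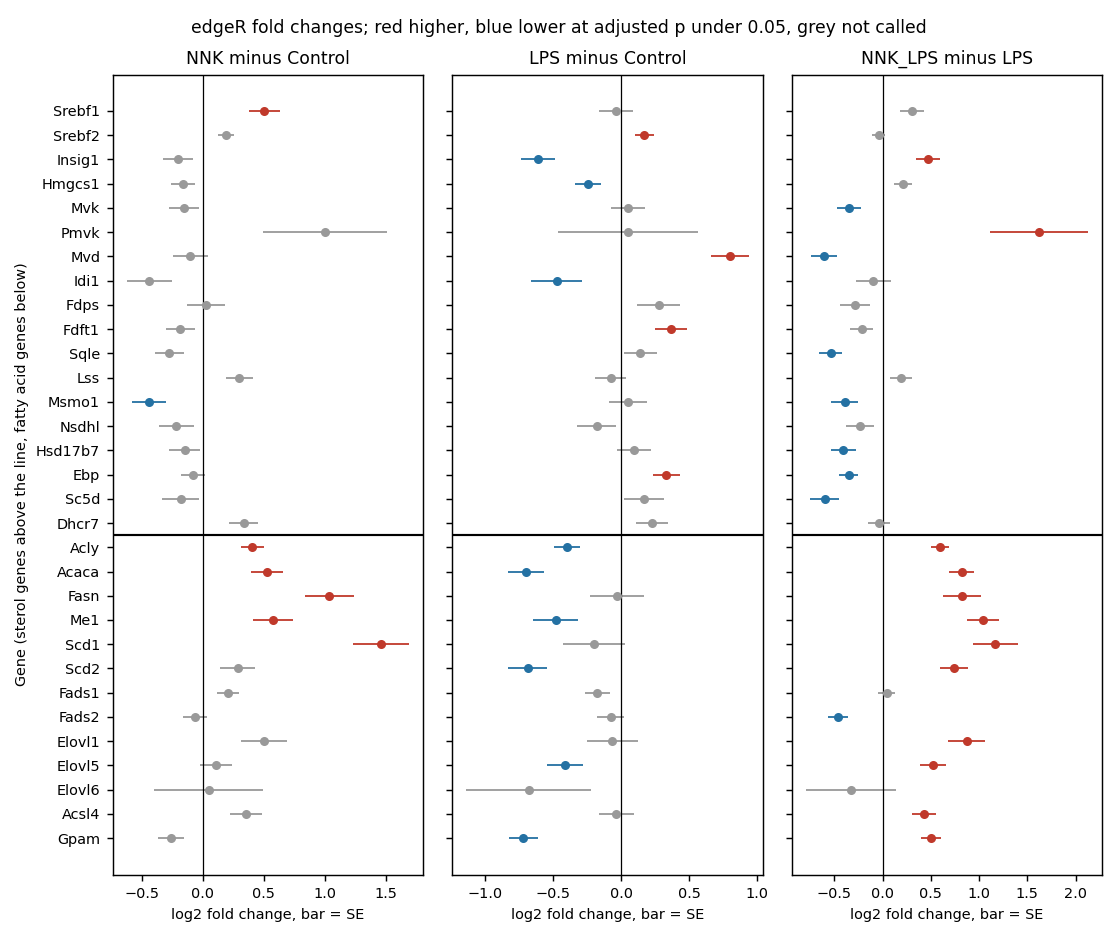
Log2 fold change (points) with its SE (bars) for each of the 31 genes in NNK against Control, LPS against Control and NNK_LPS against LPS, with called rises in red, called falls in blue and the rest in grey. Scd1 lies at 1.46 in the first, -0.20 in the second and 1.17 in the third, and sterol genes called in the third lie mostly below 0.

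In NNK_LPS tumours 12 of 14 alveolar type 2 markers rose and 1 fell against Control, and their sum was 61588 to 85677 CPM. Against LPS lung 9 rose and none fell. Of 11 adipocyte markers 2 fell against Control, with a sum of 72.3 to 155 CPM, and 2 rose against LPS. Lep was at 0 in 2 NNK_LPS libraries and Adipoq in 1. Neutrophil markers had 5 of 8 lower and alveolar macrophage markers 8 of 12 higher and 1 lower against LPS lung. Monocyte and interstitial macrophage markers had 7 of 8 lower against LPS lung and 5 of 8 higher against Control. Of 5 club cell markers 5 fell against Control and 4 rose against LPS lung. Heart muscle markers had 9 of 9 lower against Control and 1 lower against LPS lung, and endothelial markers 6 of 8 lower against Control and 2 higher against LPS lung. Against Control alveolar macrophage markers had 3 of 12 higher and 1 lower, and no neutrophil marker was called. Their part in these results was not tested. Related genes moved in both directions, beside 12.0% of all genes rising and 12.6% falling against Control. In the sterol list Npc2 (0.92 ± 0.12), Scap (0.31 ± 0.07) and Npc1 (0.41 ± 0.14) rose against Control, and the falls included Lbr (-0.22 ± 0.07) and Stard4 (-0.27 ± 0.09). In the fatty acid and glycerolipid list Elovl7 (1.13 ± 0.16), Scd3 (1.64 ± 0.49) and Agpat2 (0.49 ± 0.16) rose, and Acss2 (-0.48 ± 0.11) and Chpt1 (-0.38 ± 0.09) fell. In the efflux list 5 rose, among them Ch25h (1.48 ± 0.34) and Soat1 (1.03 ± 0.14), and none fell. Against LPS lung 5 rose and 4 fell in the sterol list, 12 rose and 2 fell in the fatty acid list. In the efflux list 6 rose and 6 fell, beside 17.3% of all genes rising and 20.9% falling. The largest rise was Acat2 (0.65 ± 0.11) in the sterol list, Scd3 (2.51 ± 0.55) in the fatty acid list and Apoc1 (0.96 ± 0.29) in the efflux list, and the largest fall in the efflux list was Ch25h (-1.98 ± 0.32).

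Within tumours, adding LPS to NNK moved none of the 31 genes past the threshold. By edgeR 0.0951% of all genes were called. Of the 31 genes, 7 had an unadjusted p under 0.05, beside 2517 of all 15770 genes. The closest were the polyunsaturated fatty acid desaturases. Fads2 stood at 40.0, 43.0 and 37.7 CPM in NNK and was lower in every NNK_LPS library (-0.48 ± 0.10, adjusted p = 0.0639). Fads1, the delta-5 desaturase near it on chromosome 19, stood at 155 ± 4.10 CPM in NNK and 122 ± 11.6 CPM in NNK_LPS (-0.34 ± 0.09, adjusted p = 0.0979). DESeq2 called both, at adjusted p of 0.00280 and 0.0249. Without NNK_LPS 3, edgeR called Fads2 (adjusted p = 0.0387). NNK_LPS shares no library set with NNK, so set and LPS cannot be told apart here.

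The effect of LPS in tumours was set against its effect in normal lung by an interaction term, which called 3 of the 31 genes, beside 25.1% of all genes. Insig1 fell with LPS in lung, while in tumours it was at 67.5, 101 and 90.6 CPM in NNK and 86.5, 93.5 and 89.6 CPM in NNK_LPS. The effects differed by 0.67 ± 0.18 on the log2 scale (adjusted p = 0.0099). Gpam fell in lung and stood at 123, 163 and 119 CPM in NNK and 148, 144 and 126 CPM in NNK_LPS, a difference of 0.76 ± 0.15 (adjusted p = 0.00149). Both were kept under all 18 alternatives, although the library set term among them rests on LPS 3 alone between these sets. For Fads2, at 42.0 ± 5.69 and 39.8 ± 1.46 CPM in Control and LPS, the difference was -0.40 ± 0.14 (adjusted p = 0.0456), and it was lost under 13 of 18 alternatives. The differences for Hmgcs1 (0.37 ± 0.13) and Mvd (-0.51 ± 0.20) missed the threshold, with adjusted p of 0.0514 and 0.0687.

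The diets were tested against NNK_LPS tumours. With silibinin edgeR called none of the 31 genes and 0% of all genes. An unadjusted p under 0.05 was found for 1 of the 31, Fads1, and for 578 of all 15770 genes. The log2 change of Fads1 had a 95% interval of 0.01 to 0.39. DESeq2 called none of the 31. The 95% interval of the log2 change ran from -0.01 to 0.51 for Srebf1 and from -0.68 to 0.11 for Elovl1. Scd1 was at 3754, 3245 and 4398 CPM with silibinin.

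With indole-3-carbinol edgeR called none of the 31 genes, where 2.02% of all genes were called. Of the 31, 8 had an unadjusted p under 0.05, beside 3251 of all 15770 genes. Elovl1 stood at 340.2, 345 and 486 CPM, below all NNK_LPS libraries, with a log2 change of -0.71 ± 0.19 (adjusted p = 0.0579). The libraries at 345 and 486 CPM, NNK_LPS_I3C 2 and NNK_LPS_I3C 3, lie in another library set than NNK_LPS. With the replicate number as a block Elovl1 was called, at -0.72 ± 0.16 (adjusted p = 0.0415). That number is the order of the libraries, and the block was chosen from correlations in these data. This call is therefore no independent support. DESeq2 called Elovl1 and Acsl4 (adjusted p = 0.00962 and 0.0211). Acsl4 was at 275, 257 and 252 CPM, also below the NNK_LPS libraries at 287 to 401 CPM (-0.45 ± 0.13, adjusted p = 0.0698 by edgeR). Without NNK_LPS 3 edgeR called Acsl4, and without NNK_LPS 1 it called Elovl6. Sqle had a positive estimate of 0.39 ± 0.12 (adjusted p = 0.0826).

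With both agents 1 of the 31 genes was called, where 1.36% of all genes were called and 0.552% rose. Fads2 rose from 30.0, 25.6 and 31 CPM to 38.0, 42.4 and 45.5 CPM, with no overlap. With indole-3-carbinol alone Fads2 was at 33.8, 36.9 and 35.5 CPM, also above all NNK_LPS libraries, and was not called. The library at 33.8 CPM, NNK_LPS_I3C 1, lies in the library set of NNK_LPS. With silibinin alone Fads2 was at 29.4 to 34.2 CPM, which overlapped NNK_LPS. The mean of Fads2 was 42.0 CPM in Control lung and 40.2 CPM in NNK tumours, which lie in another library set than NNK_LPS_Sil_I3C. With both agents its log2 change against NNK_LPS was 0.54 ± 0.10 (adjusted p = 0.0126). This call was lost without NNK_LPS 2, NNK_LPS_Sil_I3C 2 or NNK_LPS_Sil_I3C 3. It was also lost with the library set term (0.44 ± 0.18, adjusted p = 0.582) and in the fit to these 2 groups alone (0.53 ± 0.10, adjusted p = 0.191). The 2 groups share no library set. Elovl1 was at 425, 449.9 and 369.8 CPM (-0.62 ± 0.19, adjusted p = 0.107), and Scd1 at 4009, 6009 and 3761 CPM was not called. Without NNK_LPS 3 edgeR called Me1 in addition (-0.66 ± 0.15).

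Beside these genes, the marker lists moved with the diets. Of 14 alveolar type 2 markers 7 fell with indole-3-carbinol, with a sum of 48883 to 49508 CPM, and 3 fell with both agents, with a sum of 45561 to 49314 CPM. Of 9 heart muscle markers 9 rose with indole-3-carbinol, from 88.9 to 167 CPM in sum to 396 to 574 CPM. The adipocyte sum was 133 to 297 CPM with indole-3-carbinol, against 72.3 to 155 CPM in NNK_LPS. None of 11 adipocyte markers was called, but all 11 had positive estimates, with a median log2 change of 2.27. Of these, 9 had an unadjusted p under 0.05, beside 3251 of all 15770 genes. Of 5 club cell markers 2 rose with indole-3-carbinol and 1 with both agents, and their sum was 26180 to 35723 and 26428 to 33661 CPM against 16960 to 25280 CPM in NNK_LPS. Their part in the results was not tested. Of the related genes, Acss2 rose with indole-3-carbinol (0.56 ± 0.11) and with both agents (0.50 ± 0.11). Soat1 fell in both (-0.74 ± 0.14 and -0.65 ± 0.14). Elovl7 (-0.74 ± 0.15) and Npc2 (-0.56 ± 0.12) also fell with indole-3-carbinol. These comparisons share the NNK_LPS libraries. With silibinin none of the lists had a called gene.

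Across the 15 tumour libraries and the 6 lung libraries, 2 of the 31 genes did not overlap, and both were higher in tumours, where 1.95% of all genes did not overlap and 0.786% were higher without overlap. Scd1 ranged from 2612 to 6009 CPM in tumours and from 893 to 1904 CPM in lung. Srebf1 ranged from 119 to 175 CPM in tumours and from 94.2 to 111 CPM in lung. Srebf1 was called in NNK against Control but not in NNK_LPS against Control (0.27 ± 0.13, adjusted p = 0.123). The difference between these 2 contrasts is that of NNK_LPS and NNK, -0.24 ± 0.12, which was not called (adjusted p = 0.365).

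Most of the genes varied little within a group, Srebf2 least, with a pooled within-group SD of 0.07 on the log2 scale. Pmvk and Elovl6 varied most, with 0.68 and 0.60. Pmvk was at 22.7 to 32.8 CPM in all 6 lung libraries. It was at 82.8, 45.3 and 31.8 CPM in NNK, 102, 119.8 and 31.9 CPM in NNK_LPS, and 102, 71.9 and 36.8 CPM in NNK_LPS_Sil. In NNK_LPS_I3C it was at 94.7, 74.3 and 27.3 CPM, and in NNK_LPS_Sil_I3C at 30.4, 36.5 and 41.7 CPM. In 4 of the 5 tumour groups 2 libraries were at 45.3 CPM or above and the other was at 36.8 CPM or below. Elovl6 ran from 10.0 to 25.4 CPM in Control and from 11.6 to 30.6 CPM in NNK, while the LPS libraries lay together at 10.5 to 11.3 CPM. No comparison called Elovl6 in the fit to all libraries.

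**Figure D4:**
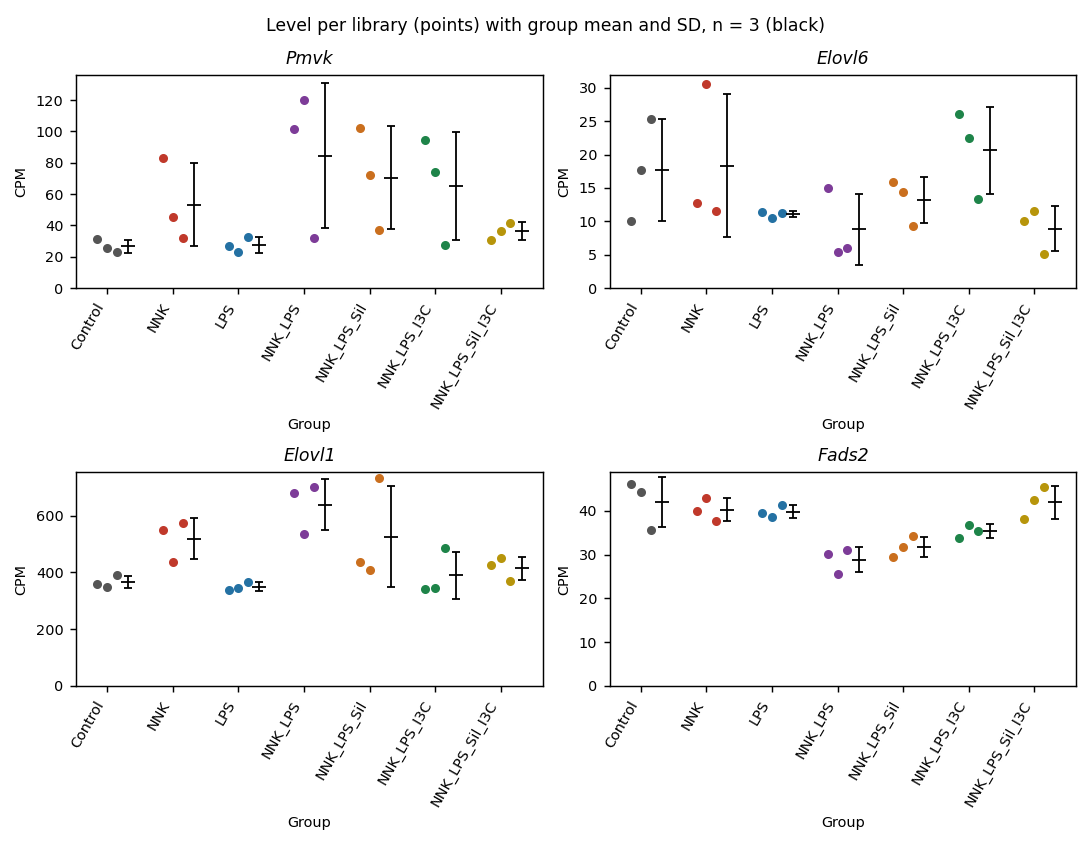
CPM in each library (points) with the group mean and SD (n = 3) for Pmvk, Elovl6, Elovl1 and Fads2. Pmvk spreads from 31.9 to 119.8 CPM within NNK_LPS, while Fads2 lies at 25.6 to 31 CPM in NNK_LPS and at 38.0 to 45.5 CPM in NNK_LPS_Sil_I3C.

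Fdps, farnesyl diphosphate synthase, and Lss were called in none of the 9 contrasts in the fit to all libraries, and group means ran from 59.9 to 77.4 CPM for Fdps and from 42.1 to 54.8 CPM for Lss. A same-strand gene model, Gm43738, overlaps 26.7% of the Fdps exons, and reads there cannot be assigned. Dhcr7 had group means of 18.1 to 22.8 CPM and no call in that fit. With only the compared groups fitted, Lss (adjusted p = 0.0358) and Dhcr7 (adjusted p = 0.0465) were called higher in NNK than in Control by edgeR, and DESeq2 also called Dhcr7 there (adjusted p = 0.0422). Dhcr7 was called higher in LPS than in Control with the library set term (adjusted p = 0.0456) and without LPS 3 (adjusted p = 0.0329). Hmgcs1 and Idi1 share 12.1% and 9.22% of their exons with antisense or unclassified models on the opposite strand.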

How the data were processed

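The deposited table holds whole-number counts per gene symbol for 21 libraries, made by the authors, and 0 columns were left unused. Library preparation used TruSeq RNA version 2, per the labels' protocols, and the build was mm10, per the submitters' processing notes. For the aligner, counting tool, annotation and strand setting, the answer is not given in the sources used here. edgeR 4.0.16 (R 4.3.3) was run on the counts with trimmed mean of M-values scaling. Its filterByExpr step, at a minimum count of 10, kept 15770 of 38924 symbols, and 16756 symbols had 0 in every library. A robust quasi-likelihood model of the 7 groups took in all libraries and had 14 residual degrees of freedom, with a common coefficient of 0.168 for biological variation. Each of 9 contrasts had its own Benjamini-Hochberg adjustment across every tested gene, and "called" means an adjusted p under 0.05. Levels are CPM on scaled library sizes, and errors of log2 fold changes are standard errors. The fit was tested on simulated counts for LPS against Control only, with 200 changed genes and the same spread for every gene. Those counts hold no library sets and fewer changed genes than these data. No pair of libraries of the same group agreed within sampling noise (lowest chi-square per degree of freedom 5.06). Pairs from different groups were not compared in this way.

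Loci and exon lengths came from GENCODE M21 (GRCm38) and promoters from RefSeq (GRCm38.p6). The genes, lists and tests were chosen with earlier results of these data known. Called members were named up to 8 per direction and class by adjusted p, and related genes up to 4. Some related genes that enter the list counts are not reported here. Only the NNK_LPS_I3C and NNK_LPS groups had same-numbered libraries whose deviations all correlated above 0.1 (0.158, 0.276 and 0.262), so that comparison is also given with the replicate number as a block. These numbers follow the order of the libraries within each group. The titles carry other numbers in every group of tumours, and no shared animal or day is given. Alternatives were relative log expression scaling, no filter, DESeq2 1.42.0, only the compared groups in the fit, the block, a library set term, and each library left out.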

Additional observations from a re-analysis of the deposited data

Results flagged for a closer look

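Differences between the effect of LPS in tumours (NNK_LPS against NNK) and in normal lung (LPS against Control) passed the test of the difference itself, edgeR's interaction term, for 3 of the 31 genes. The difference was 0.67 ± 0.18 on the log2 scale for Insig1 (adjusted p = 0.0099), 0.76 ± 0.15 for Gpam (adjusted p = 0.00149) and -0.40 ± 0.14 for Fads2 (adjusted p = 0.0456). For Insig1 and Gpam the fall with LPS was seen in lung, at -0.61 ± 0.12 and -0.72 ± 0.11. For Fads2 the larger negative value was in tumours, at -0.48 ± 0.10. Across all genes 25.1% passed this test. NNK and NNK_LPS lie in different library sets, and with a set term Insig1 and Gpam were still called and Fads2 was not.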

How the results depend on the processing

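No called gene changed sign under any alternative run. Of 55 calls over all contrasts, 54 were kept with DESeq2, 51 with size factors by relative log expression, 45 without the filter, 46 with the compared groups alone and 33 with the library set term. In NNK against Control, the 7 calls became 11 with DESeq2 and 14 with the compared groups alone. In NNK_LPS against Control, the 11 became 7 with the compared groups alone and 1 with the set term. NNK_LPS against NNK had 0, and 2 with DESeq2. Indole-3-carbinol had 0, and 2 with DESeq2. Both agents had 1, and 2 with DESeq2, 0 with the compared groups alone and 0 with the set term. Leaving out each library gave 2 to 7 calls for NNK, 8 to 10 for LPS and 4 to 11 for NNK_LPS against Control. It gave 0 to 1 for NNK_LPS against NNK, 14 to 19 against LPS, 2 to 4 for the interaction, 0 to 0 for silibinin, 0 to 1 for indole-3-carbinol and 0 to 2 for both agents. The cause of these shifts was not tested, beyond the fewer samples in each such fit.

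With the replicate block there was 1 call for indole-3-carbinol in place of 0. The block gave 8 calls for NNK, 13 for LPS, 13 for NNK_LPS against Control, 21 against LPS, 3 for the interaction, 1 for both agents, and 0 for silibinin and for NNK_LPS against NNK. Outside the indole-3-carbinol comparison, correlations of same-numbered libraries ran from -0.29 to 0.39. The numbers give only the order of the libraries and do not pair them by design in any comparison.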
